A study of Mus musculus with 10 samples.

Results

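The genes described here build cholesterol and fatty acids or control that synthesis. They were chosen by symbol from a list of 36, of which 35 were among the 13091 genes measured, and Scd1 was not matched and is not analysed here. The 35 genes comprised 18 of sterol synthesis, 8 of fatty acid synthesis and 9 of SREBP control and efflux. Polyadenylated RNA was sequenced from 10 libraries of mouse neutrophils in 4 groups. Wild-type (Vim+/+) cells were left unstimulated (2 libraries) or given LPS (2 libraries), and vimentin-deficient (Vim-/-) cells were left unstimulated (3 libraries) or given LPS (3 libraries). LPS, a bacterial cell wall component sensed by TLR4, was given at 25 ng/mL for 1 hour. All groups were of strain 129-SVEV and carried an estrogen-dependent HoxB8 transgene delivered by lentivirus, which holds bone marrow progenitors in an immature state until estrogen is withdrawn. The labels call the deficient genotype a vimentin KD, whereas the study's methods describe bone marrow of knockout mice and progenitors expanded from single sorted cells. The sources used here do not say whether replicate libraries were separate clones, so differences between clones and the genotype cannot be told apart. Values per library are not analysed here. The measurements are a mean normalised count per gene over all 10 libraries (baseMean) and the log2 fold change, standard error (SE) and adjusted p of each comparison.

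Cells make cholesterol from acetyl-CoA through mevalonate, farnesyl diphosphate, squalene and lanosterol. They make long-chain fatty acids from the same precursor, after which elongases and desaturases lengthen and unsaturate the chains. SREBP transcription factors switch on both pathways: when membrane sterol is low, Scap escorts them from the endoplasmic reticulum for activation, and when sterol is plentiful the Insig proteins hold them back. Liver X receptors act on the other side, raising the sterol exporters Abca1 and Abcg1 and the SREBP gene Srebf1.

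The label was first checked in the data. Vim, the targeted gene, was lower in Vim-/- than in Vim+/+ cells by a log2 fold change of -13.56 (SE 0.335) unstimulated and -12.44 (SE 0.243) after LPS, each with a DESeq2 adjusted p listed as 0. All 14 of 14 neutrophil markers were present at a baseMean of 11373 to 1290830. Of markers of other cells, the eosinophil granule genes Prg2 and Epx had a baseMean of 268319 and 142776, and 2 of 9 lymphocyte and dendritic cell markers were found. The summed baseMean of the neutrophil markers was 4645505, against 445863 for the mast cell, basophil and eosinophil list, 231745 for the neutrophil progenitor list, 67476 for the proliferation list, 48033 for the monocyte and macrophage list and 1033 for the lymphocyte and dendritic cell list. Because RNA was measured in bulk, fewer cells of a type and less RNA per cell cannot be told apart.

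Promoter sequence is shown for the members with the smallest p between genotypes at baseline, since SREBP target promoters are known to hold a sterol regulatory element beside boxes for NF-Y. RefSeq (GRCm38.p6) gave windows from 250 bases before to 50 bases after the start for 28 of the 35 genes, with none used for Fdps, Fdft1, Sqle, Scd2, Fads1, Stard4 and Abcg1. The 180 bases just before the start are printed 5′ to 3′ on the gene's strand, with capitals marking the sterol regulatory element TCACNCCAC, the E-box CACGTG and the NF-Y box CCAAT, each searched on both strands. They lie at chr13:119690171-119690350 on the plus strand for Hmgcs1, chr5:28071232-28071411 on the plus strand for Insig1 and chr11:120824548-120824727 on the minus strand for Fasn.
Hmgcs1: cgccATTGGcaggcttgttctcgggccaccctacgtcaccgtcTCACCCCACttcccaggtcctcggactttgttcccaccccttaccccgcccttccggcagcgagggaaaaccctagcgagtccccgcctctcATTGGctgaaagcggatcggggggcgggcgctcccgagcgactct
Insig1: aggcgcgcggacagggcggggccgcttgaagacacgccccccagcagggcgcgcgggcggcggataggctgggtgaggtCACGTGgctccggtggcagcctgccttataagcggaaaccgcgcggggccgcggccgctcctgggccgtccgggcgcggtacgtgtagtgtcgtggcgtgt
Fasn: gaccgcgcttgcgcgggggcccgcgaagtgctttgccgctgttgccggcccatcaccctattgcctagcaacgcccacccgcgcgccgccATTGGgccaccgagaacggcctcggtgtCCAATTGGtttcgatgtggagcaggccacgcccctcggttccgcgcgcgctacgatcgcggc

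Some genes had several starts, so that the 28 genes had 37 windows. TCACNCCAC was found in 1 of the 28 genes (3.57%), Hmgcs1, at positions -137 to -129 from the start, and in 1.43% of 9778 measured genes with a window. The E-box stood in 7 genes (25%, against 11.7% of measured genes), among them Insig1 at -101 to -96. The NF-Y box stood in 21 genes (75%, against 42.8%), and Fasn held copies at -90 to -86, at -62 to -58 and, overlapping the latter on the opposite strand, at -59 to -55. The GC box GGGCGG, read by Sp1 and not capitalised above, stood in 22 genes (78.6%, against 65.6%). Counted by window, the 4 motifs in this order stood in 2.7%, 21.6%, 59.5% and 73% of the 37, against 1.24%, 7.15%, 37.4% and 35.7% of all 32851 windows. Those 32851 windows were not limited to measured genes, so the shares by gene and by window have unlike backgrounds. These matches describe letters only, and the members' promoters were compared with no test.

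The genes were well counted in these cells. Per kilobase of the longest annotated transcript, Fdps, which makes farnesyl diphosphate, was the highest at a baseMean of 13215 per kb, at percentile 97.6 of all genes with a length. It was followed by the elongase Elovl1 at 4781 per kb, the liver X receptor Nr1h2 at 4276, the SREBP gene Srebf2 at 3896, the stearoyl-CoA desaturase Scd2 at 3631 and Hmgcs1 at 3234. The lowest were the elongase Elovl6 at 86.8 per kb, the exporter Abca1 at 131, the sterol reductase Tm7sf2 at 175 and the acetyl-CoA carboxylase Acaca at 194. Over the 35 genes, baseMean ranged from 517 to 39023, so each passed the authors' filter on low values in every comparison. These are means over all 10 libraries, without a spread between them.

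The first comparison asked how the genotypes differed without stimulation. Of the 35 genes, 15 were higher in Vim-/- neutrophils and 0 were lower at an adjusted p under 0.05 (DESeq2 Wald test, Benjamini-Hochberg), and 21 (60%) had an unadjusted p under 0.05, against 29.5% of all genes. Of all 12837 genes tested, 12.6% were called higher and 6.15% lower. The median log2 fold change of the 35 genes was 0.43, against 0.0792 over all genes, and 29 of the 35 (82.9%) were positive, against 55.9% of all genes.

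Sterol synthesis genes called higher numbered 7 of 18. Hmgcs1, the cytosolic HMG-CoA synthase that opens the mevalonate pathway (chr13:119690351-119708260, GRCm38), was 2.57-fold higher (95% confidence interval 2.09 to 3.17, log2 fold change 1.36, SE 0.153, adjusted p = 1.19e-16). This was the largest difference among the 35 genes. From acetyl-CoA to Fdps it was the 1 gene called of 7. The other 6 of that stretch had log2 fold changes from -0.36 for the thiolase Acat2 to 0.50 for the isomerase Idi1 (adjusted p = 0.0616). From squalene synthase Fdft1 to Dhcr7, 6 of 11 were called. Lss, which closes squalene epoxide into lanosterol, was 1.95-fold higher (1.44 to 2.64, adjusted p = 0.000326). Hsd17b7, a sterol ketoreductase, was 1.89-fold higher (1.44 to 2.47, adjusted p = 8.5e-05). Sqle, the squalene epoxidase, was 1.67-fold higher (1.35 to 2.05, adjusted p = 4.61e-05). Nsdhl and Msmo1, which act in removing methyl groups from lanosterol's products, were 1.55-fold and 1.52-fold higher, and Fdft1 was 1.37-fold higher (adjusted p = 0.0365). The other 5 of this stretch did not pass. Cyp51, the lanosterol demethylase, had a log2 fold change of 0.42 (0.09 to 0.74, adjusted p = 0.0577) and Dhcr7, the last reductase, of 0.38 (0.01 to 0.75, adjusted p = 0.148). Tm7sf2, Ebp and Sc5d had -0.04, 0.02 and -0.07, with confidence intervals of -0.68 to 0.59, -0.36 to 0.40 and -0.34 to 0.21. After fold changes were centred on genes of like transcript length, Lss had a log2 fold change of 0.56 and Fdft1 of 0.34, and neither was called.

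Fatty acid genes called higher numbered 3 of 8. Acaca, which makes malonyl-CoA, was 1.98-fold higher (1.48 to 2.64, adjusted p = 0.000105), and Fasn, the fatty acid synthase, was 1.92-fold higher (1.53 to 2.42, adjusted p = 1.4e-06). Fads2, the desaturase of polyunsaturated chains, was 1.66-fold higher (1.33 to 2.09, adjusted p = 0.000237). The 3 elongases did not pass: Elovl1 had a log2 fold change of -0.33 (adjusted p = 0.155), Elovl5 of 0.11 and Elovl6 of -0.03, the latter with an interval of -0.86 to 0.80. The desaturases Scd2 and Fads1 had 0.28 and 0.43 and did not pass either. After centring on transcript length, Acaca and Fasn had log2 fold changes of 0.48 and 0.44, against 0.98 and 0.94 before, and were not called.

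Control and efflux genes called higher numbered 5 of 9. Insig1, the SREBP retention factor, was 2.05-fold higher (1.67 to 2.53, adjusted p = 1.2e-09). Abca1, a sterol exporter, was 1.65-fold higher (1.15 to 2.36, adjusted p = 0.037). Stard4, a sterol carrier, was 1.49-fold higher, Srebf2 1.40-fold and Srebf1 1.35-fold (adjusted p = 0.0063, 0.00121 and 0.0165). Insig2, the second retention factor, had a log2 fold change of 0.55 (adjusted p = 0.11). Scap, Nr1h2 and Abcg1 lay between -0.11 and 0.12 and did not pass. After centring on transcript length, Insig1 was the 1 gene of this group still called, and Abca1, Stard4, Srebf1 and Srebf2 had log2 fold changes of 0.22, 0.32, 0.32 and 0.23.

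**Figure D1:**
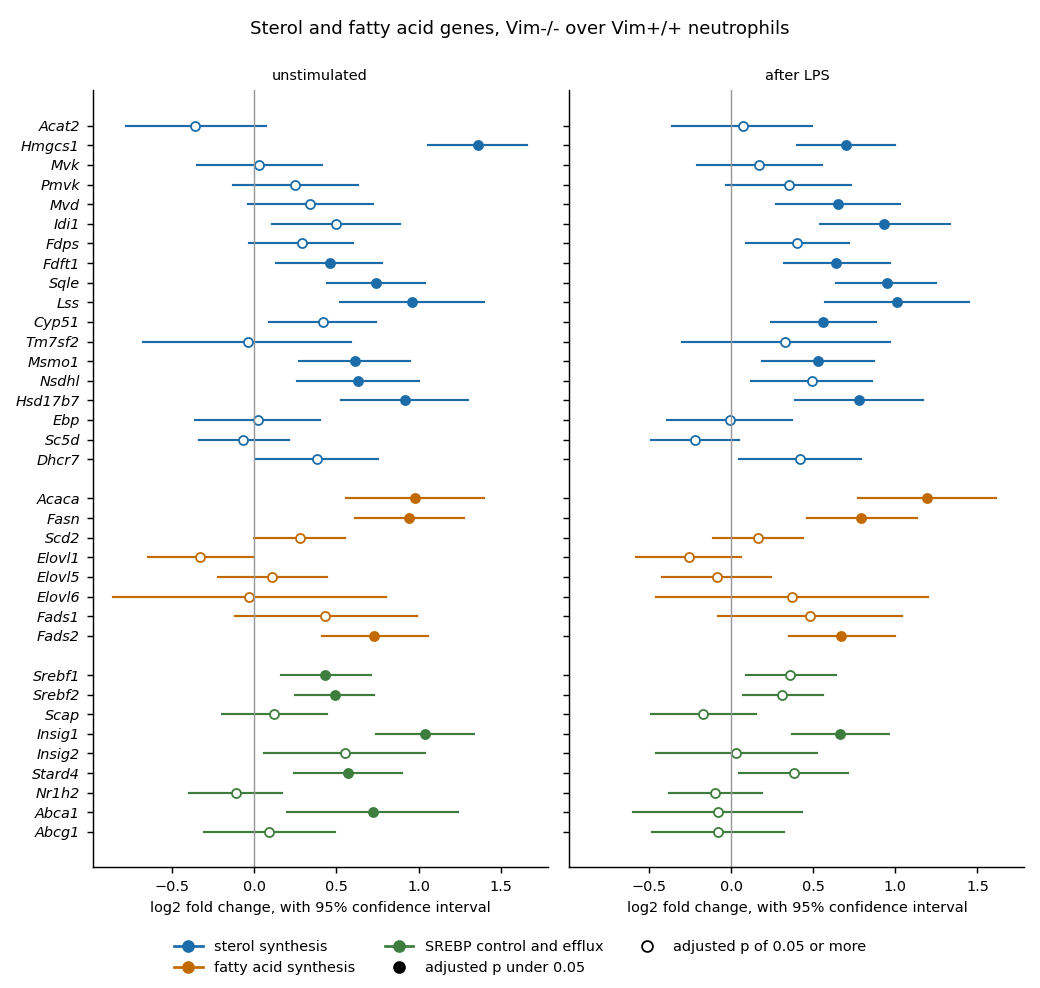
Log2 fold change of Vim-/- over Vim+/+ (x axis) for each of the 35 genes (y axis, coloured by role), unstimulated on the left and after LPS on the right, with bars for 95% confidence intervals and filled points for an adjusted p under 0.05. All filled points lie to the right of 0, 15 on the left and 13 on the right.

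Marker genes of other states and cell types were read in the same comparisons, against 12.6% of all genes called higher and 6.15% lower unstimulated and 6.68% and 4.35% after LPS. All 12 of 12 proliferation markers had positive genotype fold changes, 8 called higher unstimulated (median 0.52) and 11 after LPS (median 0.71). Of 8 progenitor markers, 4 were lower in each state (medians -0.85 and -0.59), and of 14 neutrophil markers 6 were higher unstimulated and 2 after LPS. Of 8 measured mast cell, basophil and eosinophil markers 2 were lower in each state, and of 8 monocyte and macrophage markers 1 was higher and 2 were lower in each state. Of the 2 lymphocyte and dendritic cell markers found, 1 was lower unstimulated and 2 after LPS. The fold changes of all genes also varied with transcript length at baseline, from a median of -0.33 to 0.51 over 20 length bins, and the median of the members' own bins was 0.09. Between genotypes after LPS the bin medians ran from -0.16 to 0.13. For LPS over unstimulated they ran from -0.18 to 0.33 in Vim+/+ and from -0.04 to 0.01 in Vim-/- cells. The part of these marker and length differences in the lipid gene differences was not tested. After centring on genes of like length, 7 of the 15 remained called, namely Hmgcs1, Insig1, Sqle, Msmo1, Nsdhl, Hsd17b7 and Fads2, and all calls in the table split into 919 higher and 823 lower, against 1620 and 790 before. Centring the Wald statistics on their median over all genes (0.253) and dividing them by their spread (1.83) left 2, Hmgcs1 and Insig1.

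**Figure D2:**
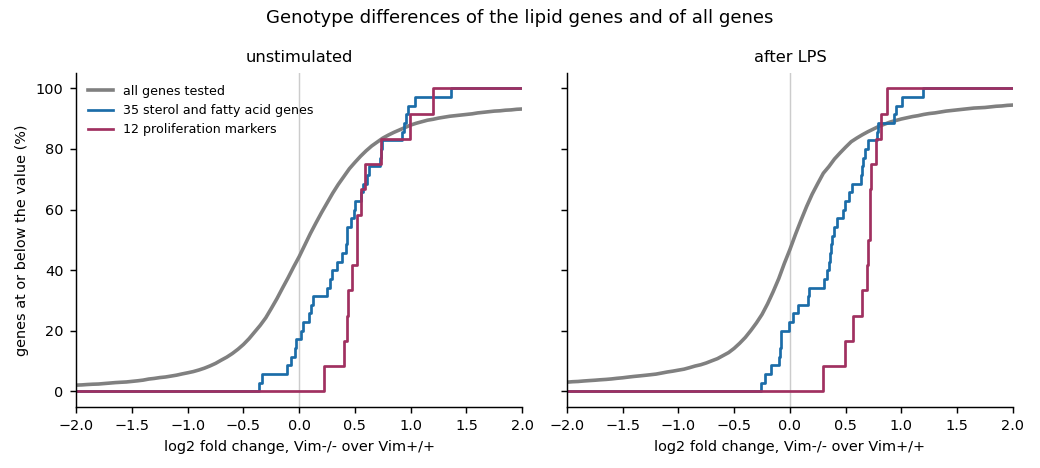
Share of genes (y axis, %) at or below each log2 fold change of Vim-/- over Vim+/+ (x axis, drawn from -2 to 2) for all genes tested, the 35 lipid genes and 12 proliferation markers, unstimulated on the left and after LPS on the right. The lipid genes have medians of 0.43 against 0.0792 over all genes and 0.38 against 0.0349, their curve crosses that of all genes at the upper end, and the proliferation markers have medians of 0.52 and 0.71.

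After LPS, 13 of the 35 genes were higher in Vim-/- than in Vim+/+ neutrophils and 0 were lower, and 19 (54.3%) had an unadjusted p under 0.05, against 22.1% of all genes. Of all 12837 genes tested, 6.68% were called higher and 4.35% lower. The median of the 35 genes was 0.38, against 0.0349 over all genes. Sterol synthesis genes called numbered 9 of 18: Lss was 2.01-fold higher (1.48 to 2.73, adjusted p = 0.000231), Sqle 1.93-fold (1.56 to 2.38, adjusted p = 9.12e-08), Idi1 1.91-fold (1.46 to 2.51, adjusted p = 0.000117) and Hmgcs1 1.62-fold (1.32 to 2.0, adjusted p = 0.000167). Hsd17b7, the decarboxylase Mvd, Fdft1, Cyp51 and Msmo1 were 1.45-fold to 1.72-fold higher. Acaca was 2.28-fold higher (1.70 to 3.05, adjusted p = 2.06e-06), the largest difference of the 35 in this state, with Fasn at 1.73-fold and Fads2 at 1.59-fold. Of the control and efflux genes, Insig1 was the 1 called of 9, at 1.58-fold (1.29 to 1.95, adjusted p = 0.000425). Abca1 had a log2 fold change of -0.08 (-0.60 to 0.43). Centring the Wald statistics (median 0.121) and dividing them by their spread (1.5) left 2 of the 13, Acaca and Sqle, while the calls over all genes went from 1416 to 290.

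The genotype comparisons unstimulated and after LPS share no library, though both came from 1 fit with the same covariates. Within each genotype the labels give the same replicate numbers in both states. Whether the same cultures or clones were used in both states is not stated in the sources used here, so the comparisons may not be independent. Called in both were 10 genes, 66.7% of the 15 and 76.9% of the 13: Hmgcs1, Fdft1, Sqle, Lss, Msmo1, Hsd17b7, Acaca, Fasn, Fads2 and Insig1. Of all genes called higher, 608 were called higher in both states, 37.5% of those unstimulated and 70.9% of those after LPS, and the members' shares were not tested against these. Centring on transcript length left 6 members called in both, and centring and dividing the Wald statistics left 0. Nsdhl, Srebf1, Srebf2, Stard4 and Abca1 passed unstimulated and missed the threshold after LPS, and Mvd, Idi1 and Cyp51 passed after LPS alone. The change in genotype difference between the states equals the difference between the LPS responses, which is given with its test further on and which no member passed.

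**Figure D3:**
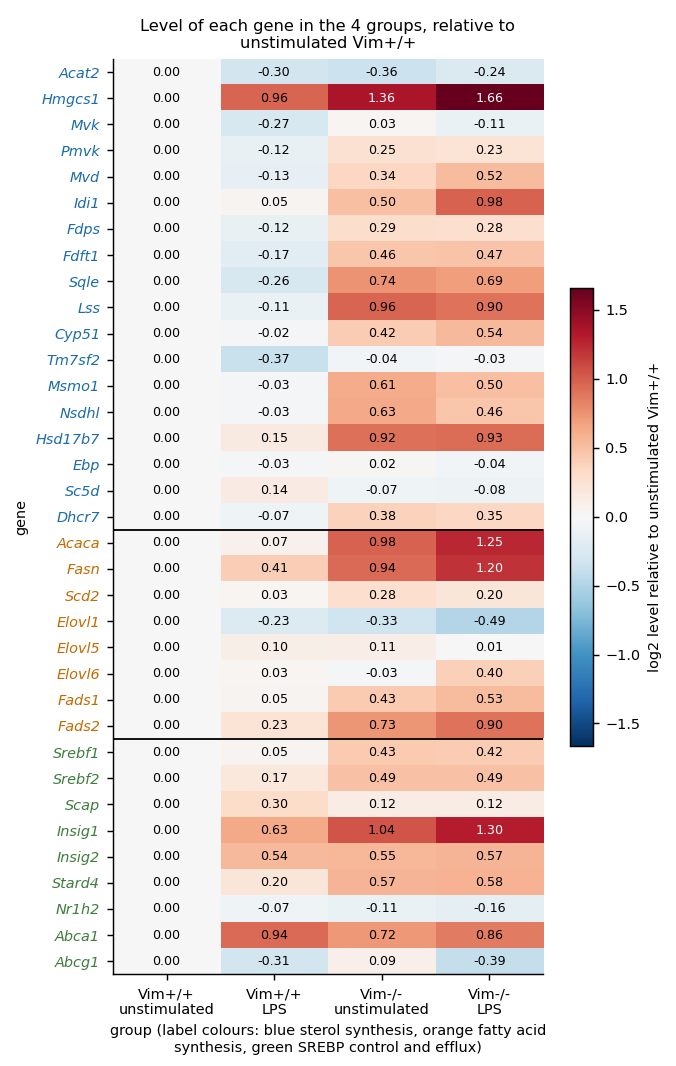
Log2 level of each of the 35 genes (rows, label colours giving the role) in the 4 groups (columns), relative to unstimulated Vim+/+, which is 0 by definition. Hmgcs1 reached 0.96 in Vim+/+ cells after LPS, 1.36 in unstimulated Vim-/- cells and 1.66 in Vim-/- cells after LPS.

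The next comparison asked what 1 hour of LPS did in Vim+/+ neutrophils. It raised 3 of the 35 genes and lowered 0, with 5 (14.3%) at an unadjusted p under 0.05, close to the 11.7% of all genes. Of all 13091 genes tested, 1.8% were called higher and 0.374% lower, and the median log2 fold change of the 35 genes was 0.03. Hmgcs1 rose 1.94-fold (1.55 to 2.43, adjusted p = 1.26e-06), Abca1 1.92-fold (1.30 to 2.83, adjusted p = 0.0455) and Insig1 1.55-fold (1.24 to 1.94, adjusted p = 0.00988). Fasn had a log2 fold change of 0.41 (adjusted p = 0.326) and Insig2 of 0.54 (adjusted p = 0.42). Of the 18 sterol synthesis genes, 14 had negative fold changes, down to -0.37 for Tm7sf2, and none of those passed. Of all 13091 genes, 6421 were negative. After centring on transcript length, Pmvk, Msmo1, Nsdhl and Ebp of the 14 were positive, at 0.07 or less. This comparison shares the Vim+/+ libraries with the genotype comparisons, so that their values are not independent. Abca1 was not called after centring on transcript length (log2 fold change 0.61), and Hmgcs1 was the 1 gene left when the Wald statistics were centred (median 0.0152) and divided by their spread (1.17).

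In Vim-/- neutrophils, LPS changed 0 of the 35 genes at an adjusted p under 0.05 (DESeq2), and 3 (8.57%) had an unadjusted p under 0.05, close to the 7.23% of all genes. Of all 12329 genes tested, 1.51% were called higher and 0.698% lower. The 3 were Hmgcs1 at a log2 fold change of 0.29 (0.02 to 0.56, adjusted p = 0.554), Idi1 at 0.48 (0.13 to 0.84, adjusted p = 0.212) and the exporter Abcg1 at -0.48 (-0.84 to -0.12, adjusted p = 0.26). Insig1 had 0.26 (-0.01 to 0.53) and Abca1 0.14 (-0.33 to 0.60).

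**Figure D4:**
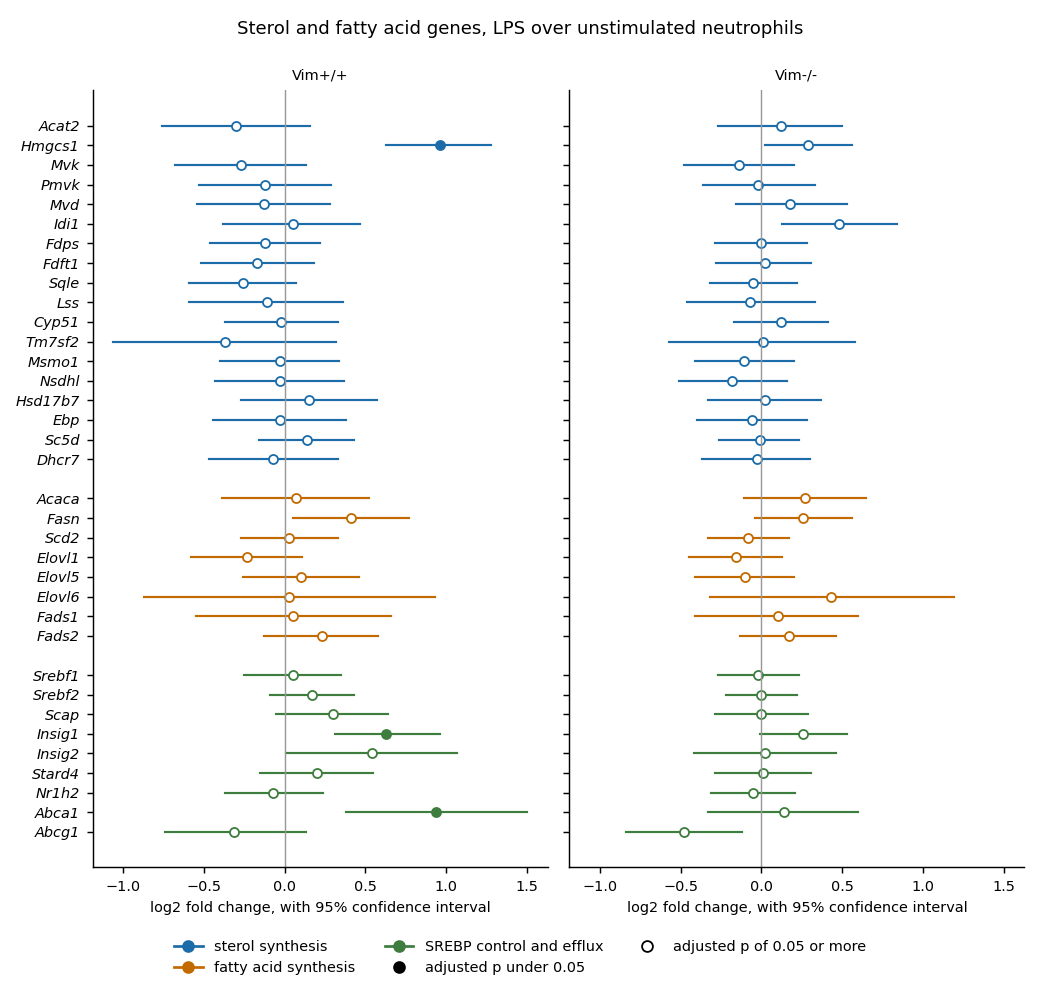
Log2 fold change of LPS over unstimulated (x axis) for each of the 35 genes (y axis, coloured by role), Vim+/+ on the left and Vim-/- on the right, with bars for 95% confidence intervals and filled points for an adjusted p under 0.05. Hmgcs1, Insig1 and Abca1 are filled on the left, at 0.96, 0.63 and 0.94, and no point is filled on the right.

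The LPS responses were compared directly, as Vim-/- minus Vim+/+, with a two-sided normal test from the standard errors of both. None of the 35 genes passed an adjusted p of 0.05, and 2 had an unadjusted p under 0.05. Of all 13091 genes, 0.0611% passed as higher and 0.0153% as lower, and 791 had an unadjusted p under 0.05. The difference for Hmgcs1 was -0.67 (-1.09 to -0.24, adjusted p = 0.376) and that for Abca1, the other of the 2, was -0.81 (-1.53 to -0.08, adjusted p = 0.786). For Insig1 it was -0.37 (-0.80 to 0.05, adjusted p = 0.877). The intervals thus leave room for sizeable differences in single genes, and a response called in Vim+/+ and not in Vim-/- cells was not shown to differ. This test is approximate, since the covariance of the responses is not in the tables.

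Other genes of the lipid pathways were taken from lists, to be read against the 12.6% of all genes called higher unstimulated and 6.68% after LPS. Of 12 other isoprenoid and sterol genes, 2 were higher in unstimulated Vim-/- cells and 0 lower, the cholesteryl ester hydrolase Nceh1 (log2 fold change 0.58, adjusted p = 0.00171) and the lysosomal sterol transporter Npc1 (0.61, adjusted p = 0.00214). After LPS 2 were higher and 0 lower, Nceh1 (0.57, adjusted p = 0.00364) and the mitochondrial thiolase Acat1 (0.58, adjusted p = 0.0374). Of 17 tested other fatty acid genes, 2 were higher and 1 lower unstimulated: the citrate lyase Acly (0.73), Lpin1 (1.13) and Hacd2 (-0.49). After LPS, Acly (0.59) was higher and Hacd2 (-0.49) lower. Of 15 other genes of SREBP and LXR regulation, 3 were higher and 1 lower unstimulated, with the lipoprotein receptor Scarb1 at 0.75, Ncor1 at 0.63 and Rxrb at -0.75 and, named after its value was seen, Erlin2 at 0.53. After LPS 2 were higher, Scarb1 (0.77) and Rxra (0.73). At an adjusted p under 0.05 (DESeq2), LPS called 0 genes of these lists in either genotype. At an unadjusted p under 0.05 there was 1 in Vim+/+ cells, on the fatty acid list, and 1 in Vim-/- cells, on the isoprenoid and sterol list.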

How the data were processed

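Per the labels and the study's methods, reads were trimmed with cutadapt 4.4 and aligned and quantified with STAR 2.7.10b on mm10. The authors then fitted 1 model in DESeq2 1.26.0 with 4 RUVSeq covariates, which stand for unwanted variation estimated from the data. The annotation and strand setting are not given in the sources used here. The deposited files are the authors' 4 comparison tables: mean normalised counts (signal, baseMean), log2 fold changes with SE, Wald scores, and p-values with adjusted p-values. They hold no values per library, so depth is unknown and the authors' own test was used in place of a refit. The sign of both genotype contrasts was switched, so that positive values mean higher in Vim-/-.

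Intervals are 95% normal intervals, and calls needed an adjusted p under 0.05. LPS responses were compared by a two-sided normal test with Benjamini-Hochberg adjustment over all genes. The fold changes of the 4 comparisons added up for 35 of 35 members within 1e-06. Transcript lengths (longest transcript, GENCODE M21) matched 12046 genes (92%) and 35 members. Scripts used Python 3.11.15 and scipy 1.17.1. The test of the difference between LPS responses was tried on simulated data, and the Benjamini-Hochberg step was checked against a separate calculation. The simulation drew the errors of both responses independently, so it did not cover their covariance. Other steps were not tried on simulated data.

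The members and lists were chosen with earlier results of these data known. All members may be named, and up to 3 genes of each other lipid list by smallest p. Some genes of the other lipid lists are not reported here. P-values measure the spread between these libraries that was left after the 4 RUVSeq covariates were fitted, and that spread may be technical. With 10 libraries in 4 groups, few libraries remained to estimate it.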

Additional observations from a re-analysis of the deposited data

How the results depend on the processing

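No paired analysis was possible because the deposited tables hold no values per library, and leaving out each replicate was not run for the same reason. Requiring a log2 fold change over 1 as well gave 2 members called unstimulated, 2 after LPS and 0 for LPS in Vim+/+, by construction of the threshold. Wald statistics centred and divided by their robust spread gave 2, 2 and 1. Centring on transcript length gave 7 unstimulated, kept all 13 after LPS and gave 2 for LPS in Vim+/+. Whole-table calls unstimulated numbered 2410, against 917, 188 and 1742 under these, and after LPS 1416, against 683, 290 and 1300. A baseMean of at least 100 and Benjamini-Hochberg adjustment over every gene moved no member's call, and centring on genes with a baseMean of at least 100 lost Abca1 and Fdft1 unstimulated. Members with no call and a fold change near 0 changed sign. Unstimulated, with Wald statistics centred, Mvk and Ebp were at -0.01 and -0.01. With fold changes centred they were at -0.03 and -0.04. With length centring, Nr1h2 was at 0.01 and Abcg1 at -0.24. After LPS, with length centring, Ebp was at 0.04 and Insig2 at -0.005. For LPS in Vim+/+ with length centring, Pmvk, Nsdhl and Ebp were each at 0.07, Msmo1 at 0.003, Nr1h2 at 0.05, Acaca at -0.27, Scd2 at -0.14, Elovl6 at -0.17 and Srebf2 at -0.004. For LPS in Vim-/-, Fdps, Srebf2 and Scap were at 0.01, 0.004 and 0.01 with Wald statistics centred, at 0.005, 0.01 and 0.01 with fold changes centred and at 0.01, 0.001 and 0.01 with length centring. Apart from the effect of the fold threshold, the cause was not tested. The median of the 35 genes went from 0.43 to 0.37 (fold changes centred) and 0.32 (length centring) unstimulated, and from 0.38 to 0.35 and 0.37 after LPS.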
